A study of Mus musculus with 10 samples.

Results

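Collagens are the proteins of 3 chains wound into a triple helix that make up most of the fibrous extracellular matrix. The collagen genes were taken from the deposited table by their symbols, Col followed by a type number and a chain number, which gave 42 of the 14796 named genes. They were described in 3 classes: 9 fibrillar genes (types I, II, III, V and XI), 8 basement membrane genes (types IV, XV and XVIII) and 25 others. The table comes from RNA sequencing of mouse telencephalon at embryonic day 12; this anterior part of the embryonic brain later forms the cortex and basal ganglia. The study compared a null allele of Polr1a with a missense allele that changes the protein at C1559F. The product of Polr1a is the largest of the subunits of RNA polymerase I, which transcribes ribosomal RNA. The null set, whose titles start with Polr_2048, holds wild types 1 and 2 and nulls 1 and 2. The missense set, whose titles start with Polr_2138, holds wild types 3, 4 and 5 and missense samples 1, 2 and 3. Mutants were compared only with the wild types of the same set, so that the mutant comparisons share no samples. The labels give the genotypes as wt, null and missense, without zygosity or strain, and do not say whether samples come from separate embryos or litters, or what the title numbers mean. P-values therefore measure the spread between these samples only, which may be technical in part.

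Fibrillar collagens assemble into rope-like fibrils outside the cell and give connective tissue its tensile strength. In the embryonic head they are made mainly by mesenchymal cells, among them those of the meninges around the brain, by blood vessel walls and by cartilage. Type IV collagen instead forms the sheet-like network of basement membranes, which underlie epithelia, surround capillaries and line the pial surface to which radial glia attach, and types XV and XVIII are proteoglycans bound to these sheets. Neural progenitors and neurons express few collagens, so that in dissected telencephalon much of this RNA can come from the tissue around and between the neural cells. In such bulk samples, more cells of a collagen-making type and more collagen RNA per cell cannot be told apart.

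The upstream sequences of 3 fibrillar genes are shown, chosen with their null values known. Of the fibrillar genes with a promoter sequence, Col3a1, Col1a2 and Col5a1 had the largest log2 changes in the null, 0.66, 0.65 and 0.59. None of these passed the test described below (limma adjusted p = 0.407, 0.482 and 0.466). Some collagens outside this class had larger changes, among them Col9a2 at 0.83. The printed stretches differ in letter composition. These sequences come from RefSeq, build GRCm38.p6, plus strand, outside every annotated exon, and are written 5′ to 3′. Capitals mark the GC box GGGCGG and the TATA box TATAAA, searched on both strands. The Col1a2 stretch is chr6:4505370-4505492 and ends 126 bases before the annotated start, since the bases between lie in annotated exons. The Col5a1 stretch is chr2:27886305-27886424 and the Col3a1 stretch is chr1:45311388-45311537, and both end 1 base before the annotated start.
Col1a2: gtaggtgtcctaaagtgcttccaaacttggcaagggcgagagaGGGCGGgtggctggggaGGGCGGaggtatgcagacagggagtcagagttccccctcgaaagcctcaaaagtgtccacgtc
Col5a1: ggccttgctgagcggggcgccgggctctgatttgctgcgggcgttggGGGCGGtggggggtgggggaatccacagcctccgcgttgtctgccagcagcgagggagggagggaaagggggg
Col3a1: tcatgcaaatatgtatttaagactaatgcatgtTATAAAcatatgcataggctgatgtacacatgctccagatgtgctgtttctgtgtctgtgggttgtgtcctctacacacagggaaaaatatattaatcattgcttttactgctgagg
The Col1a2 stretch held 2 GC boxes and the Col5a1 stretch 1. The Col3a1 stretch held no GC box and 1 TATA box, and 37.3% of its bases were G or C, against 59.3% in Col1a2 and 72.5% in Col5a1. The stretches are not matched in position. They lie 248 to 126 bases before the start in Col1a2, 120 to 1 in Col5a1 and 150 to 1 in Col3a1. The TATAAA of Col3a1 lies nearer to the far end of its stretch than to the start. Of the 42 genes, 33 had a promoter entry of 300 bases, 250 before and 50 after the start, with 36 entries in all. The GC box was in 63.9% of these collagen windows and in 35.7% of all 32851 windows, the CCAAT box (CCAAT, both strands) in 36.1% and 37.4%, and the TATA box in 11.1% and 13.6%. The 32851 windows belong to 27025 genes, more than the 14796 named genes of the deposited table. They thus include genes not measured here, and shares among measured genes alone were not computed. A match describes letters in the window and not a bound site.

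Collagen levels were high for a few members and low for many. The deposited values are log2 RPM (reads scaled to the same total in each sample) with a small offset, and were returned to the linear scale and divided by the length of the longest principal transcript to compare genes. Over the 5 wild types, Col3a1, the chain of the type III fibrils of vessels and loose connective tissue, had a mean of 127.6 ± 26.5 (SD, n = 5) RPM per kb. Col1a1 and Col1a2, the chains of type I collagen, followed at 126.2 ± 39.6 and 99.1 ± 24.5 (SD, n = 5). These 3 levels overlapped from sample to sample, with ranges of 105 to 171, 88.2 to 187 and 72.7 to 135, so that their order was within the spread. Next came Col4a1 at 62.6 ± 5.34 and Col2a1, the chain of type II cartilage collagen, at 54.0 ± 12.4, whose ranges overlapped, and then Col4a2 at 42.9 ± 3.54, Col18a1 at 36.3 ± 3.58 and Col5a2 at 31.1 ± 5.43 (SD, n = 5). The first gene outside the fibrillar and basement membrane classes was Col26a1 at 29.5 ± 4.44 (SD, n = 5). At the other end, Col6a5, Col6a4, Col4a4, Col4a3 and Col19a1 had means between 0.144 and 0.180. The wild types differed little in Col4a1, with an SD of 5.34 around 62.6, and more in Col1a1, with an SD of 39.6 around 126.2.

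**Figure D1:**
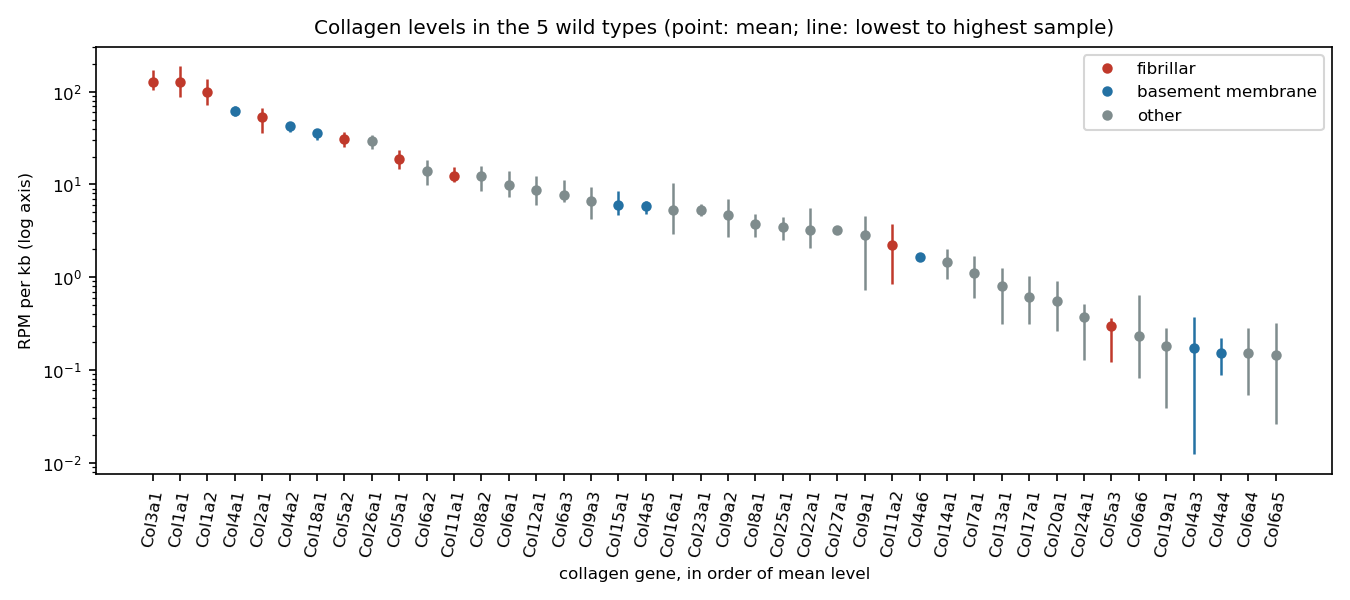
Level of each of the 42 collagen genes in the 5 wild types, in RPM per kb of transcript on a log axis, with the mean as a point and a line from the lowest to the highest sample. Col3a1, Col1a1 and Col1a2 lead with means of 127.6, 126.2 and 99.1 and overlapping ranges, while the least abundant genes lie below 0.2.

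Depth per sample is unknown, because the deposited values sum to nearly the same total in every sample (1000450 to 1000890 after back-transformation), and no counting interval can be given. Correlations between samples ran from 0.938 to 0.964. Polr1a, the targeted gene, was lower in the null samples, at -0.48 on the log2 scale (SE 0.20, limma adjusted p = 0.563), and at -0.08 (SE 0.16, adjusted p = 0.964) in the missense samples. The 12 telencephalon markers were all present, with summed levels of 2179 to 2433 RPM in wild types 1 and 2, 1638 to 1854 in the nulls, 2155 to 2303 in wild types 3 to 5 and 1709 to 1999 in the missense samples. Among them Dlx1 and Dlx2, transcription factors of the ventral progenitors, fell in the null samples, by 1.38 and 1.68 on the log2 scale (limma adjusted p = 0.000369 and 0.0128). Not all 12 markers fell: 4 had a log2 change above 0 in the null and 2 in the missense samples, with medians of -0.35 and -0.23.

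In the null samples no collagen gene passed the test (limma, adjusted p under 0.05, 0 of 42), where 0.162% of all genes did. The smallest adjusted p was 0.348. At an unadjusted p under 0.05 there were 11 of 42 collagens, all with higher values in the null, against 8.32% of all genes in either direction and 5.04% higher. Of the 42 genes, 32 had a log2 change above 0, against 54.6% of all genes, and their median change was 0.32 against 0.03 for all genes tested. In 20 collagens both nulls lay above both wild types (22.9% of all genes did so), and in 3 both lay below (14.8% of all genes).

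The fibrillar class had the highest median log2 change in the null, 0.50, with 7 of 9 genes above 0 and 5 at an unadjusted p under 0.05. The classes differ in their share of genes of low level, and this ranking was not adjusted for it. Of the 31 collagens at or above the 25th percentile of level over all genes, 28 were above 0 in the null. Of the 11 below that percentile, 4 were above 0, and Col5a3 was the only fibrillar gene among the 11. Col1a1 had log2 levels of 9.23 and 9.03 in wild types 1 and 2 and of 9.49 and 10.17 in nulls 1 and 2. Both nulls were above both wild types, and null 2 stood well above null 1. The change was 0.70 (SE 0.24, unadjusted p = 0.0147, limma adjusted p = 0.431). Col1a2, its partner in the type I trimer, had 9.01 and 8.60 in the wild types and 9.18 and 9.74 in the nulls, a change of 0.65 (SE 0.25, unadjusted p = 0.0225, limma adjusted p = 0.482). The order of the 4 samples was the same as for Col1a1. Col3a1, which is also a ligand of the receptor Gpr56 (Adgrg1) at the pial surface, had 9.39 and 9.25 in the wild types and 9.87 and 10.09 in the nulls, a change of 0.66 (SE 0.22, unadjusted p = 0.0112, limma adjusted p = 0.407). Here the gap between the groups was wider than the gap within either.

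The type V chains, which start and limit the growth of type I fibrils, gave smaller values. Col5a1 lay at 7.35 and 6.96 in the wild types and at 7.64 and 7.85 in the nulls, a change of 0.59 (SE 0.22, limma adjusted p = 0.466). Col5a2 lay at 7.88 and 7.38 against 7.86 and 8.12, a change of 0.36 (SE 0.20, limma adjusted p = 0.710), and its groups overlapped. Of the type XI chains, which do the same for cartilage fibrils, Col11a1 was at 6.57 and 6.34 in the wild types and at 6.98 and 6.93 in the nulls, with a change of 0.50 (SE 0.16, unadjusted p = 0.0104, limma adjusted p = 0.400). Col11a1 was the fibrillar gene on which nulls 1 and 2 were closest to each other. Col11a2 differed from it: 4.35 and 4.05 in the wild types, 4.63 in null 1 and 2.59 in null 2, a change of -0.60 with an SE of 0.79. Col2a1, the main cartilage collagen, which early neuroepithelium also expresses, was at 8.42 and 7.90 in the wild types and at 8.37 and 8.17 in the nulls, a change of 0.12 (SE 0.25). Its nulls lay between its wild types, so the most abundant cartilage collagen showed no separation here. Col5a3, a further type V chain of low level, ran from 0.90 to 1.23 over the 4 samples, a change of -0.09 (SE 0.69).

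**Figure D2:**
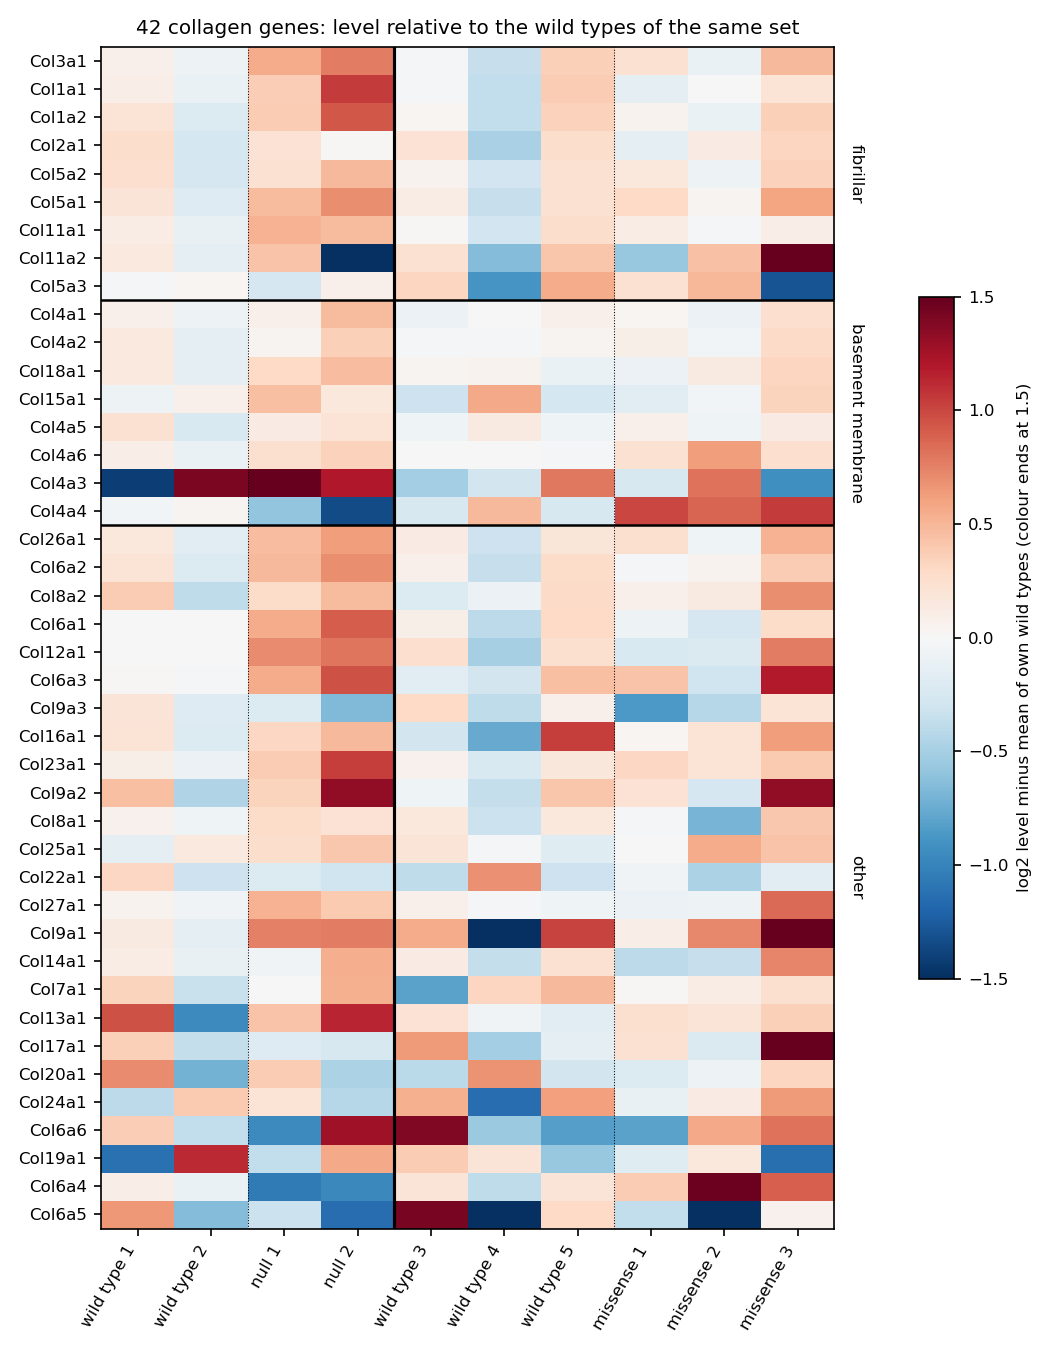
Log2 level of each of the 42 collagen genes (rows, by class and then by wild-type level) in each of the 10 samples (columns), minus the mean of the wild types of the same set; red is above and blue below that mean, and the colour ends at 1.5. Null 2 and missense 3 have the highest value of their set in 25 and 24 genes, and wild types 2 and 4 the lowest in 30 and 19.

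The basement membrane class had a median log2 change of 0.28 in the null, with 7 of 8 genes above 0 and 1 at an unadjusted p under 0.05. That gene was Col18a1, whose C-terminal fragment is endostatin, an inhibitor of vessel growth. It was at 7.48 and 7.19 in the wild types and at 7.63 and 7.80 in the nulls, a change of 0.38 (SE 0.14, unadjusted p = 0.0230, limma adjusted p = 0.484). Col15a1, its relative in muscle and vessel basement membranes, was at 4.89 and 5.05 against 5.42 and 5.12, a change of 0.31 (SE 0.28, limma adjusted p = 0.839). The chains of the common type IV trimer gave smaller values. Col4a1 had 8.66 and 8.51 in the wild types and 8.67 and 9.06 in the nulls, a change of 0.28 (SE 0.14, limma adjusted p = 0.664). Null 1 was level with wild type 1, and null 2 alone stood apart. Col4a2 had 8.19 and 7.89 against 8.09 and 8.40, a change of 0.20 (SE 0.14, limma adjusted p = 0.768), and its groups overlapped.

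The remaining type IV chains are known from the basement membranes of kidney, cochlea, lung and smooth muscle. Col4a5 was at 5.42 and 4.96 in the wild types and at 5.32 and 5.40 in the nulls, a change of 0.17 (SE 0.17). Col4a6 was at 3.55 and 3.34 against 3.68 and 3.79, a change of 0.29 (SE 0.21, limma adjusted p = 0.787). Col4a6 separated the groups, whereas Col4a5 did not. Col4a3 had -2.21 in wild type 1, 0.63 in wild type 2 and 1.21 and 0.41 in the nulls, and its change of 1.60 had an SE of 0.92. Col4a4 had 1.16 and 1.23 in the wild types and 0.60 and -0.15 in the nulls, a change of -0.97 (SE 0.50, limma adjusted p = 0.668). Both are near the bottom of the measured range, and for Col4a3 wild type 1 alone lay far below the other 3 samples.

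The other 25 collagens had a median log2 change of 0.33 in the null, with 18 above 0 and 5 at an unadjusted p under 0.05. Type VI collagen, which forms beaded filaments around cells, had its smallest p for Col6a1, at 4.91 and 4.90 in the wild types and at 5.46 and 5.81 in the nulls, a change of 0.73 (SE 0.23, unadjusted p = 0.0097, limma adjusted p = 0.392). Col6a2 was at 5.71 and 5.30 against 5.99 and 6.21, a change of 0.59 (SE 0.22, limma adjusted p = 0.462). Col6a3, the longest chain of that trimer, was at 5.91 and 5.87 against 6.44 and 6.84, a change of 0.75 (SE 0.38, limma adjusted p = 0.666). In all 3 chains both nulls were above both wild types, and null 2 was the higher null. Col6a4, a related chain, went the other way at a low level, with 1.15 and 0.96 in the wild types and 0.00 and 0.10 in the nulls, a change of -1.01 (SE 0.59, limma adjusted p = 0.722).

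Col23a1, a transmembrane collagen, had the smallest p of all 42 genes in the null. Its levels were 4.88 and 4.70 in the wild types and 5.17 and 5.83 in the nulls, a change of 0.71 (SE 0.21, unadjusted p = 0.0068, limma adjusted p = 0.348). Col12a1, which sits on the surface of type I fibrils, was at 6.13 and 6.12 against 6.83 and 6.92, a change of 0.75 (SE 0.32, limma adjusted p = 0.567). For Col12a1 each pair of samples was within 0.1 and the pairs were far apart, while its SE also draws on the spread in the missense set. Wild types 3, 4 and 5 had Col12a1 at 7.14, 6.38 and 7.12, so that both nulls lay within the range of the other set's wild types. Col26a1 was at 6.43 and 6.11 against 6.74 and 6.90, a change of 0.55 (SE 0.21, limma adjusted p = 0.486), and Col27a1, which is fibrillar by sequence but was placed here by its number, at 4.59 and 4.49 against 5.06 and 4.93, a change of 0.46 (SE 0.27, limma adjusted p = 0.724). The other 17 genes of the class ran from -0.73 for Col6a5, which has 1 sample at the floor of the table, to 0.83 for Col9a2.

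In the missense samples no collagen gene passed either (limma, 0 of 42; 0.0203% of all genes did), and the smallest adjusted p was 0.884. At an unadjusted p under 0.05 there was 1 of 42, against 5.54% of all genes. Of the 42 genes, 33 had a log2 change above 0, against 54% of all genes, with a median of 0.13 against 0.02 for all genes. All 3 missense samples lay above all 3 wild types in 4 collagens (6.02% of all genes), and in no collagen did all lie below (4.89% of all genes). The class medians were 0.10 for fibrillar, 0.09 for basement membrane and 0.21 for other collagens.

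**Figure D3:**
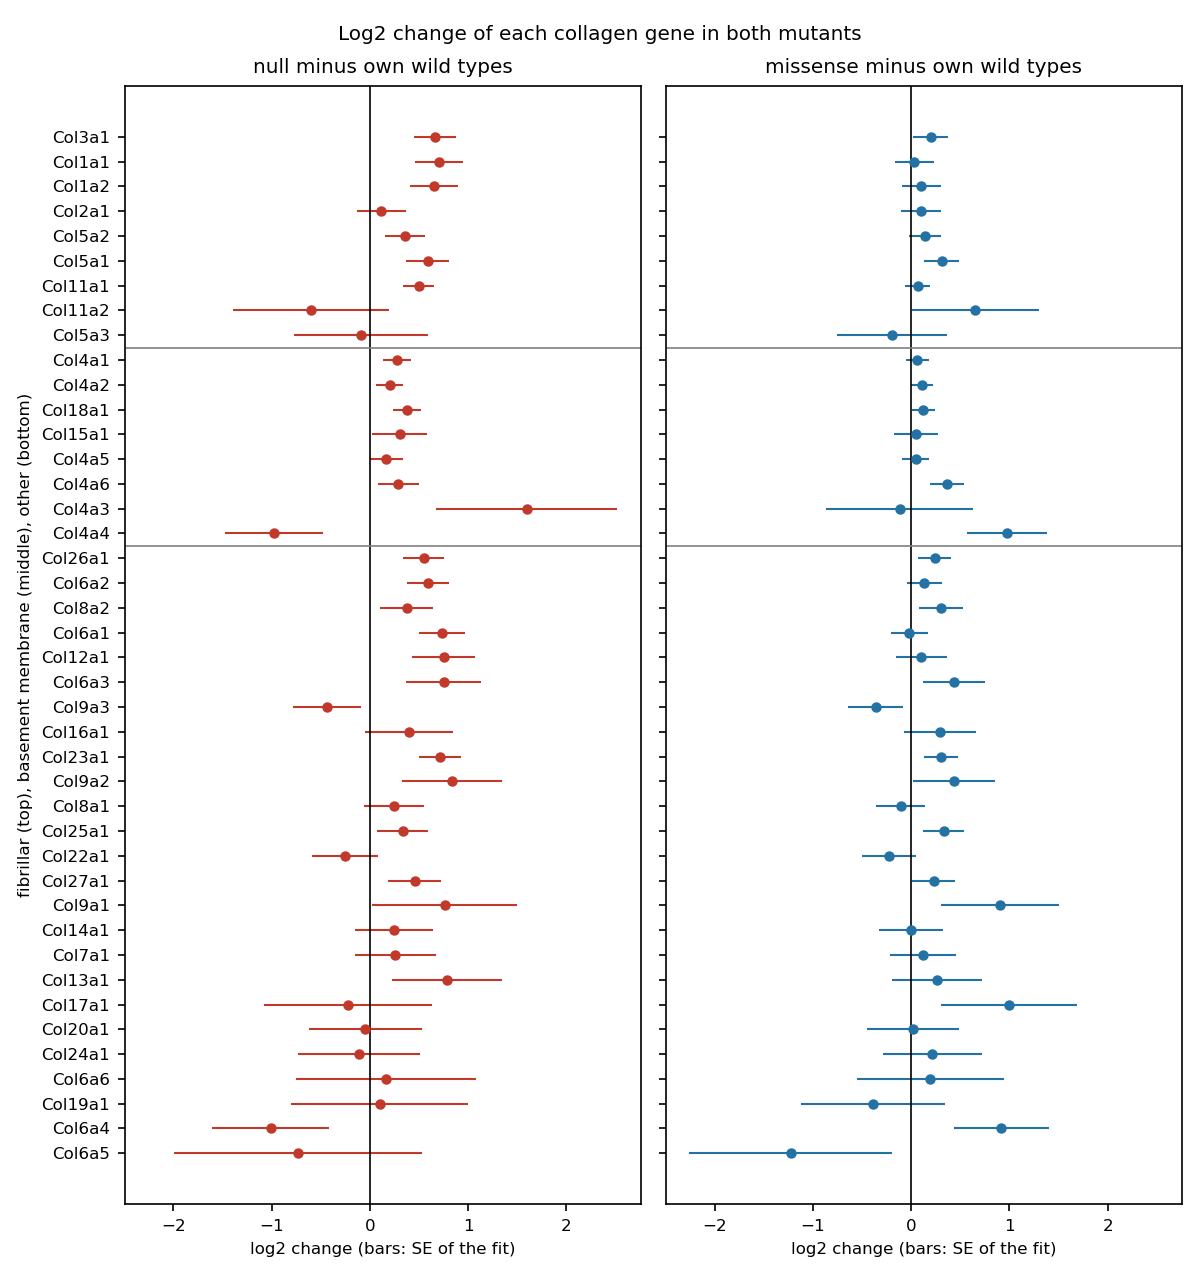
Log2 change of each collagen gene in the null (left) and missense samples (right) against the wild types of the same set; points are the fitted changes and bars the SE of the limma fit. In the null 32 of 42 points lie above 0 with a median of 0.32, in the missense samples 33 of 42 with a median of 0.13, and the bars are widest for the genes of low level.

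Among the fibrillar genes of the missense set the groups overlapped in every case. Col1a1 was at 9.72, 9.37 and 10.12 in wild types 3, 4 and 5 and at 9.60, 9.75 and 9.95 in missense samples 1, 2 and 3, a change of 0.03 (SE 0.20). The wild types alone spanned more than the missense samples did. Col1a2 was at 9.19, 8.78 and 9.50 against 9.21, 9.06 and 9.52, a change of 0.10 (SE 0.20). Col3a1 was at 9.52, 9.18 and 9.89 against 9.76, 9.43 and 10.01, a change of 0.20 (SE 0.18, limma adjusted p = 0.929). In each of these 3 genes wild type 4 was the lowest sample. Col5a1 gave the largest change of the well-expressed fibrillar genes, with 7.50, 7.04 and 7.62 against 7.69, 7.42 and 7.98, a change of 0.31 (SE 0.18, unadjusted p = 0.107, limma adjusted p = 0.902). Col5a2 had a change of 0.14 (SE 0.17), Col11a1 of 0.06 (SE 0.13) and Col2a1 of 0.10 (SE 0.20). For Col11a2, at 3.10, 2.22 and 3.28 against 2.29, 3.30 and 4.96, the change of 0.65 had an SE of 0.65, and missense 3 stood alone. Col5a3 had a change of -0.19 (SE 0.56).

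Of the basement membrane genes, Col4a4 was the collagen with the smallest p in the missense samples. It was at 0.02, 0.74 and 0.03 in the wild types and at 1.26, 1.13 and 1.31 in the missense samples, a change of 0.97 (SE 0.41, unadjusted p = 0.0363, limma adjusted p = 0.884). All missense samples were above all wild types, at a low level. Col4a6 was the other gene of the class without overlap, with 3.51, 3.50 and 3.48 against 3.73, 4.12 and 3.74, a change of 0.37 (SE 0.17, unadjusted p = 0.0564, limma adjusted p = 0.902). Col4a1 was at 8.67, 8.77 and 8.84 against 8.79, 8.67 and 9.01, a change of 0.06 (SE 0.12), and Col4a2 had a change of 0.11 (SE 0.11). Col18a1 had a change of 0.12 (SE 0.12), Col15a1 of 0.05 (SE 0.23), Col4a5 of 0.04 (SE 0.14) and Col4a3 of -0.12 (SE 0.75). For Col4a1 and Col4a2 the SEs, near 0.1, were among the smallest of the collagens in this comparison. These SEs reflect the spread between samples within the 4 groups and not the precision of counting.

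Of the other collagens, Col6a3 was at 6.04, 5.93 and 6.66 in the wild types and at 6.64, 5.91 and 7.39 in the missense samples, a change of 0.44 (SE 0.31, limma adjusted p = 0.916). Missense 2 was the lowest of the 6 samples and missense 3 the highest. Col6a1 had a change of -0.02 (SE 0.19), Col6a2 of 0.13 (SE 0.18), Col12a1 of 0.10 (SE 0.26) and Col26a1 of 0.24 (SE 0.17). Col23a1 was at 5.01, 4.72 and 5.11 against 5.26, 5.15 and 5.35, without overlap, a change of 0.30 (SE 0.17, limma adjusted p = 0.902). Col6a4 was at -0.41, -0.99 and -0.41 against -0.22, 0.87 and 0.29, also without overlap, a change of 0.92 (SE 0.48, limma adjusted p = 0.902). Col27a1 was at 4.74, 4.65 and 4.60 against 4.58, 4.59 and 5.51, a change of 0.23 (SE 0.22) that rested on missense 3. The other 17 genes of the class ran from -1.23 for Col6a5 to 0.997 for Col17a1, a collagen of the hemidesmosomes of surface epithelium, for which missense 3 was at 4.34 and the other 5 samples of the set between 0.86 and 2.01.

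The difference between the alleles was tested directly, as the null change minus the missense change, and no collagen passed (limma, 0 of 42, smallest adjusted p = 1.0; 0.0135% of all genes passed). At an unadjusted p under 0.05 there were 3 of 42, against 4.13% of all genes. These were Col4a4 with a difference of -1.94 (SE 0.64, unadjusted p = 0.0119), Col6a4 with -1.92 (SE 0.77, unadjusted p = 0.0291) and Col6a1 with 0.75 (SE 0.30, unadjusted p = 0.0304). Col4a4 and Col6a4 are low in every sample, and in both the wild types of the sets differ: the wild types of the missense set were below those of the null set by a log2 change of -0.93 (SE 0.46) and -1.66 (SE 0.54). Col6a1 was higher in wild types 3 to 5 than in wild types 1 and 2 by 0.64 (SE 0.21, unadjusted p = 0.0125, limma adjusted p = 0.522). Between the wild types of the sets no collagen passed (limma, 0 of 42; 0.0946% of all genes did), 4 of 42 had an unadjusted p under 0.05 (7.37% of all genes), and the median log2 difference was 0.19 in favour of the missense set against 0.02 for all genes. The 4 were Col6a1, Col6a4, Col12a1 and Col1a1. Col12a1 and Col1a1 were higher in wild types 3 to 5, by 0.75 (SE 0.29, limma unadjusted p = 0.0256) and 0.61 (SE 0.22, limma unadjusted p = 0.0193). These differences were of a size like the null changes of the same genes, 0.75 and 0.70. Over the mutants, 27 collagens had a log2 change above 0 in both, 4 were below 0 in both, 5 were above 0 in the null alone and 6 in the missense samples alone.

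Single samples carried much of these values. Relative to the mean of their own wild types, the median over the 42 collagens was 0.28 in null 1 and 0.47 in null 2, and 0.02, -0.01 and 0.37 in missense samples 1, 2 and 3. In these medians the wild types of each set spread more widely than the mutants. The wild-type medians were 0.14 and -0.14 in wild types 1 and 2 and 0.07, -0.31 and 0.23 in wild types 3, 4 and 5. Summed levels of all collagens did not share this, with an SD of 851 RPM in the nulls and 520 in wild types 1 and 2. In the missense set that SD was 826 in both groups. Null 2 was the highest of its 4 samples in 25 of 42 collagens (25.1% of all genes) and wild type 2 the lowest in 30 (28.3% of all genes). Missense 3 was the highest of its 6 samples in 24 collagens (24.7% of all genes) and wild type 4 the lowest in 19 (25.5% of all genes). Leaving out null 2 gave a median null change of 0.28, and leaving out wild type 2 gave 0.20, against 0.32 with all samples. Without missense 3 the missense median was 0.01 and 24 of 42 genes were above 0, and without wild type 4 the median was 0.09, again with 24 above 0. The medians also grew without other samples. The null median was 0.52 without wild type 1 and 0.47 without null 1. The missense median was 0.22 without missense 1, 0.20 without missense 2 and 0.24 without wild type 5.

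The sums of mesenchyme markers were highest and lowest in the same samples as those of the fibrillar collagens. The 9 fibrillar genes summed to 2645 and 2150 RPM in wild types 1 and 2, 3155 and 4028 in nulls 1 and 2, 2967, 2258 and 3669 in wild types 3 to 5 and 3021, 2841 and 3728 in missense samples 1 to 3. The 19 measured of 20 mesenchyme and meninges markers summed to 1061 and 837 in wild types 1 and 2, 1253 and 1582 in the nulls, 1177, 861 and 1232 in wild types 3 to 5 and 1181, 1194 and 1805 in the missense samples. Wild types 2 and 4 were thus the lowest and null 2 and missense 3 the highest of their sets in both sums. Igf2, a growth factor gene with a mean log2 level of 9.33, was the highest of the mesenchyme markers and weighs most in their sums. Of these markers 18 of 19 had a log2 change above 0 in the null, with a median of 0.55, and 17 of 19 in the missense samples, with a median of 0.36. None passed the test (limma), with 6 at an unadjusted p under 0.05 in the null and 2 in the missense samples. Of all genes, 54.6% and 54% were above 0, and 8.32% and 5.54% had an unadjusted p under 0.05. Osr1, a transcription factor of mesenchyme, had changes of 1.09 (SE 0.34, limma adjusted p = 0.374) and 0.82 (SE 0.28, limma adjusted p = 0.884). The part of these markers in the collagen values was not tested.

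**Figure D4:**
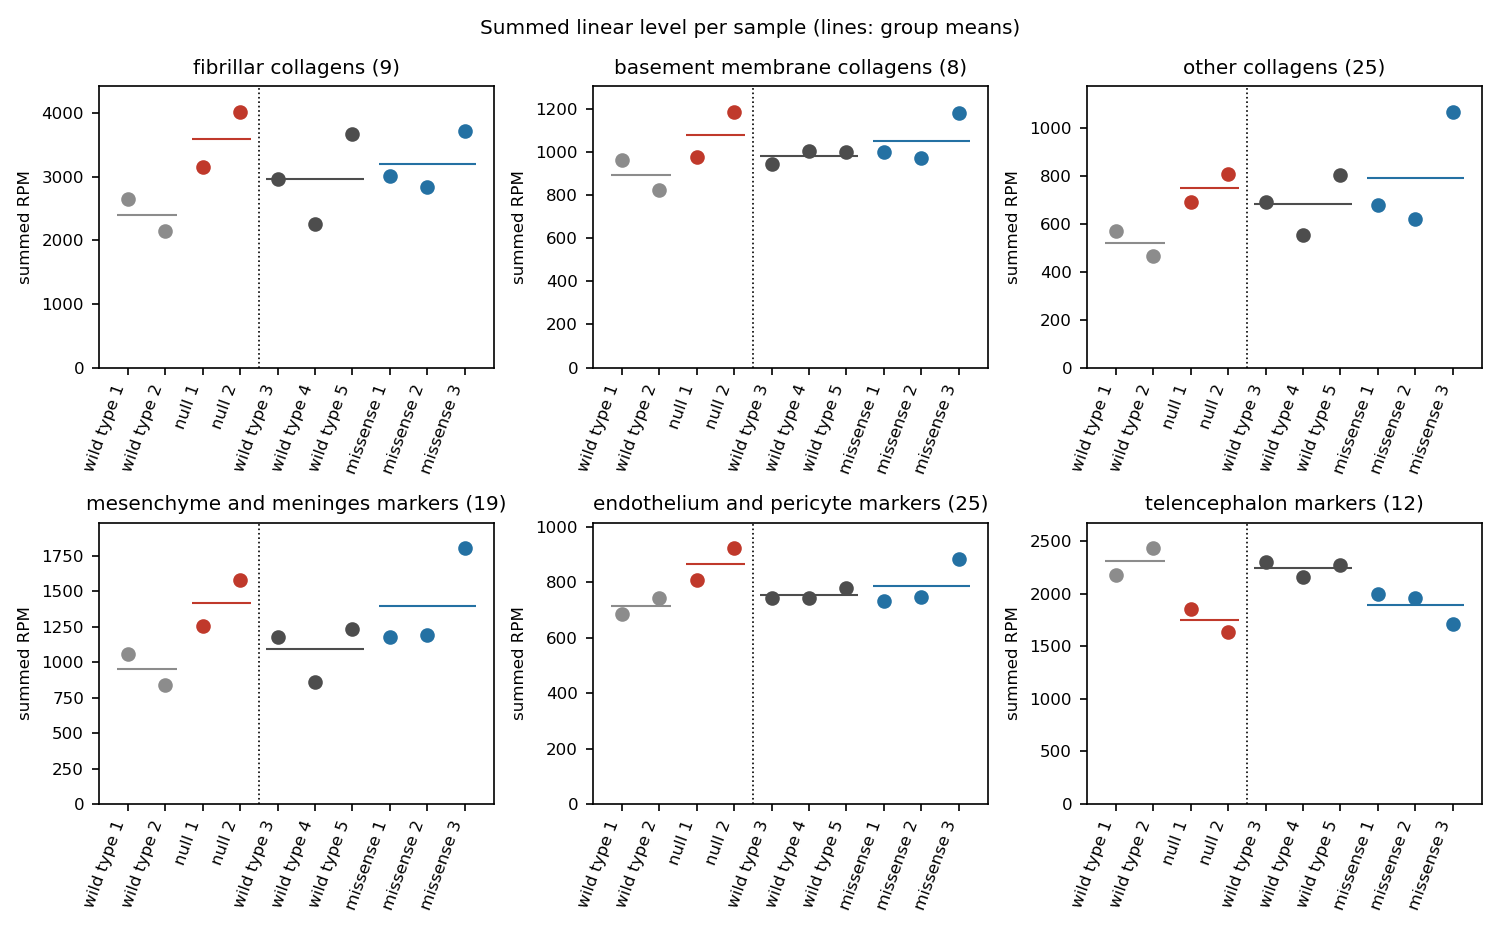
Summed linear level, in RPM, of the 3 collagen classes, of mesenchyme and meninges markers, of endothelium and pericyte markers and of telencephalon markers in each of the 10 samples; points are samples and lines group means. Fibrillar collagens and mesenchyme markers share their lowest samples (wild types 2 and 4) and their highest (null 2 and missense 3), while telencephalon markers are lowest in null 2 and missense 3 of their sets.

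The basement membrane class summed to 963 and 826 RPM in wild types 1 and 2, 976 and 1189 in the nulls, 948, 1007 and 999 in wild types 3 to 5 and 1000, 974 and 1183 in the missense samples. The 25 measured of 26 endothelium and pericyte markers summed to 684 and 745, 809 and 923, 743, 743 and 778, and 732, 747 and 883 in the same order of samples. Null 2 and missense 3 led both sums, and wild type 4, the lowest of its set for fibrillar genes, was the highest of the 3 wild types of its set for basement membrane genes. Endothelium markers were above 0 in 23 of 25 genes in the null (median 0.27) and in 13 of 25 in the missense samples (median 0.04), with none passing and 4 and 1 at an unadjusted p under 0.05. The shares over all genes were 54.6% and 54% above 0, and 8.32% and 5.54% at an unadjusted p under 0.05. The 6 measured of 11 cartilage markers summed to 26.7 to 27.8 in wild types 1 and 2, 45.6 to 55.2 in the nulls, 21.8 to 46.2 in wild types 3 to 5 and 28.7 to 55.6 in the missense samples. Missense samples 1 and 2, at 28.7 and 31.2, lay within the range of wild types 3 to 5, and missense 3 was at 55.6. Acan, the main cartilage proteoglycan, had a mean log2 level of -0.16, near the bottom of the table, and 4 of the 6 cartilage markers were above 0 in each mutant. The 14 blood markers, which hold genes of red cells and of macrophages and microglia, were above 0 in 13 genes in the null and in 10 in the missense samples. The smallest p among them was that of Csf1r, a receptor of macrophages and microglia, with a change of 0.95 in the null (SE 0.17, limma adjusted p = 0.0688). Their sums, set mainly by globins, were 8605 and 5442 in wild types 1 and 2, 7476 and 8878 in the nulls, 7260, 8534 and 7260 in wild types 3 to 5 and 8394, 6923 and 7750 in the missense samples, so that wild type 4 was the highest of its set here. The 19 measured of 20 surface and olfactory epithelium markers summed to 57.4 to 66.2, 103 to 108, 73.8 to 114 and 84.4 to 231 by group, with 18 of 19 above 0 in each mutant. Only missense 3 was at 231, while missense samples 1 and 2, at 84.4 and 100, lay within the range of their wild types. Markers of the choroid plexus and the cortical hem summed to 284 and 257, 458 and 521, 355, 345 and 375, and 484, 414 and 453 in the same order of samples, and missense 1 was the highest of its set. Of these, 14 of 14 were above 0 in the null and 11 of 14 in the missense samples, and Wnt8b among them rose in the null by 1.08 (SE 0.14, limma adjusted p = 0.0220). The part of these cell types in the collagen values was not tested.

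Chains that build the same trimer were compared across samples, as a description, since these pairs were chosen with the values known. Log2 level differences between chains are not corrected for length, so only their spread over the 10 samples is informative. Col4a1 minus Col4a2 ran only from 0.47 to 0.66, a span of 0.19, although each chain alone spanned 0.55 and 0.54. Col5a1 minus Col5a2, Col6a1 minus Col6a2 and Col1a1 minus Col1a2 spanned 0.46, 0.46 and 0.47, less than their chains, which spanned 0.74 to 1.14. Col6a1 minus Col6a3, of the same type VI trimer, spanned 1.18, more than the 0.94 of Col6a1 itself, and Col8a1 minus Col8a2, of the type VIII collagen of vessels and cornea, spanned 1.19, also more than Col8a1 itself. The widest spans were those of other pairs: Col9a1 minus Col9a2, of the type IX collagen that coats cartilage fibrils, spanned 2.48, Col9a1 minus Col9a3 spanned 3.63, Col11a1 minus Col11a2 spanned 2.68, and Col4a3 minus Col4a4 spanned 5.05. Col4a1 and Col4a2 are neighbours on chromosome 8 and run head to head, with annotated starts that overlap by 22 bases in GRCm38.p6. Col4a5 and Col4a6 are head to head on chromosome X with 1343 bases between their starts, and their difference spanned 0.81, against 0.48 and 0.78 for each chain. The promoter sequences of these head-to-head pairs are not shown. Col4a3 and Col4a4, whose difference spanned 5.05, both lie on chromosome 1. The layout of their starts was not examined, because Col4a3 has no promoter entry. A link between gene layout and span was not tested.

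**Figure D5:**
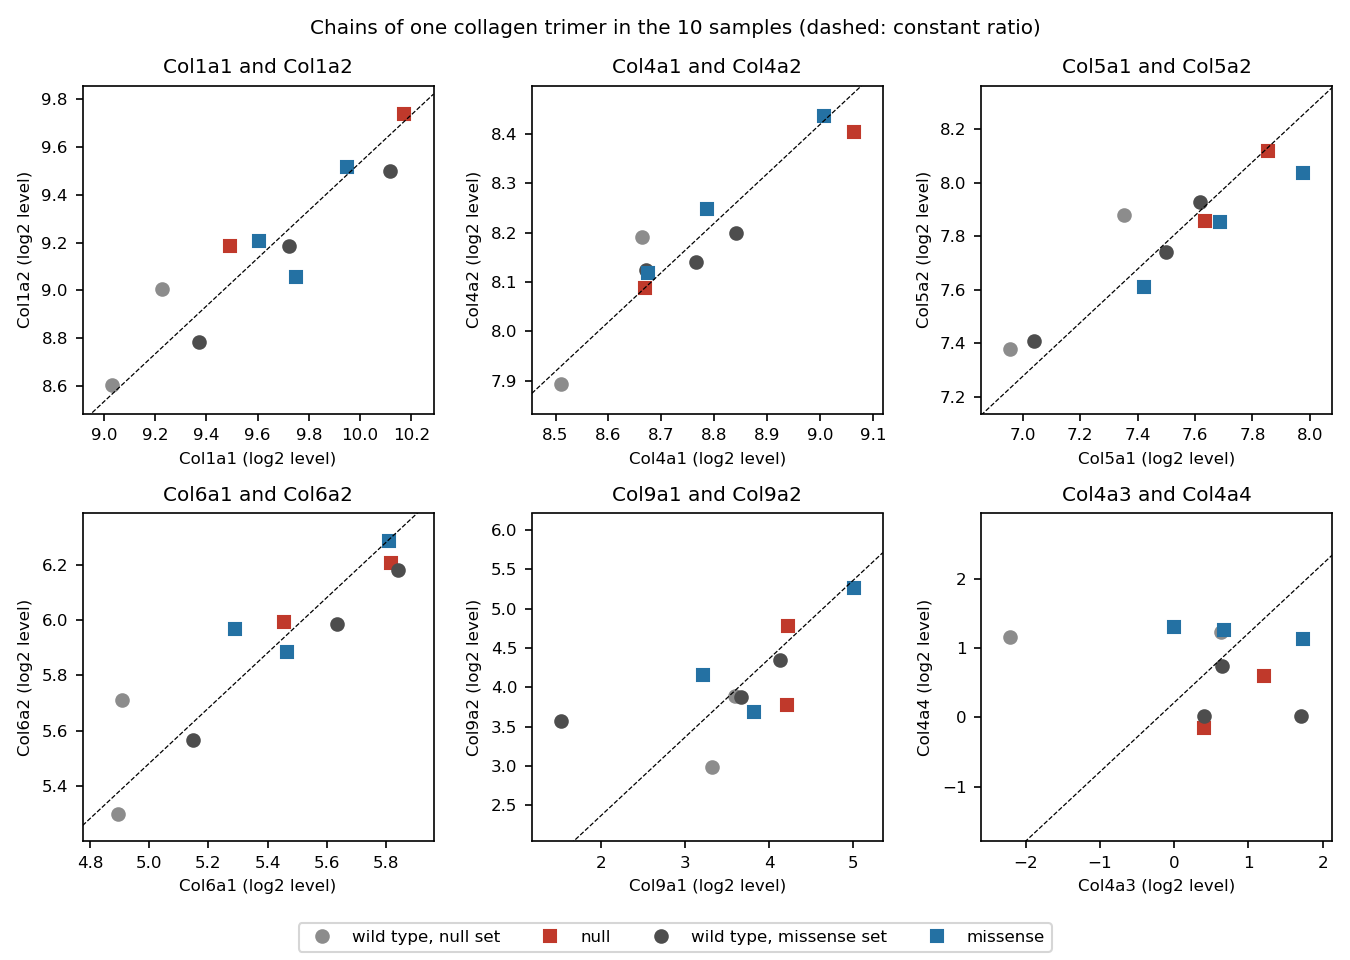
Log2 level of 1 chain against its partner in 6 collagen trimers, with 1 point per sample, circles for wild types and squares for mutants; the dashed line marks a constant ratio, and both axes of a panel span the same number of log2 units. Col4a1 and Col4a2 keep a ratio that spans 0.19 on the log2 scale, while Col9a1 and Col9a2 spread over 2.48 and Col4a3 and Col4a4 over 5.05.

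Genes that make, process and bind collagens were described from lists of other genes. Over all genes, 54.6% were above 0 in the null and 54% in the missense samples, and 8.32% and 5.54% had an unadjusted p under 0.05. Of 26 genes for collagen synthesis and folding, 24 had a log2 change above 0 in the null (median 0.26) and 23 in the missense samples (median 0.11). None passed the test, and 2 and 1 had an unadjusted p under 0.05. Crtap, which helps to hydroxylate a proline of fibrillar chains, had 0.49 (SE 0.20, limma adjusted p = 0.543) in the null and 0.30 (SE 0.16) in the missense samples. Of 16 genes for processing and crosslinking, 14 and 11 were above 0, with medians of 0.36 and 0.17, none passing, and 2 and 1 at an unadjusted p under 0.05. Loxl2, a lysyl oxidase that crosslinks collagen, had the smallest p in both, with 0.51 (SE 0.19, limma adjusted p = 0.471) and 0.47 (SE 0.15, limma adjusted p = 0.884).

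Of the 28 measured of 31 fibril-associated matrix genes, 24 were above 0 in each mutant, with medians of 0.52 and 0.20. None passed, and 12 in the null and 2 in the missense samples had an unadjusted p under 0.05. Fmod, a small proteoglycan that binds type I fibrils, had 1.31 (SE 0.29, limma adjusted p = 0.154) in the null and 0.66 (SE 0.23, limma adjusted p = 0.884) in the missense samples. Of 25 basement membrane partners such as laminins and nidogens, 18 and 23 were above 0, with medians of 0.43 and 0.23, none passing, and 7 and 3 at an unadjusted p under 0.05. Lama1, a laminin chain of the pial basement membrane, had 0.49 (SE 0.11, limma adjusted p = 0.144) and 0.20 (SE 0.09, limma adjusted p = 0.896). The null value of Lama1 was larger than that of Col4a1 or Col4a2, with a smaller SE. Of the 13 measured of 14 collagen receptors, 9 and 8 were above 0 (medians 0.24 and 0.03, none passing, 1 and 2 at an unadjusted p under 0.05), and Antxr2, a receptor that takes up type VI collagen, had 0.60 (SE 0.19, limma adjusted p = 0.397) and 0.37 (SE 0.16, limma adjusted p = 0.884). The receptors above 0 were 69.2% and 61.5%, not far from the 54.6% and 54% of all genes. Of the 20 measured of 23 genes for collagen breakdown, 15 and 13 were above 0 (medians 0.31 and 0.11, none passing, 3 and 2 at an unadjusted p under 0.05), and Mmp2, a gelatinase, had 0.76 (SE 0.34, limma adjusted p = 0.594) and 0.46 (SE 0.28, limma adjusted p = 0.902).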

How the data were processed

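Total RNA of telencephalon from 10 mouse samples was sequenced by the authors, who deposited a single table of filtered and normalized values. The unit was read from the deposited values: they are on a log2 scale, share a floor of -3.16, and sum after back-transformation to nearly 1 total, as log2 RPM with a small offset do. GRCm39 is named in the submitters' processing notes; an aligner, a counter or an annotation is not given in the sources used here. Of 14797 genes, 1 has no name and was left out. For the 14796 others a linear model of the 4 groups was fitted in limma (3.58.1; R 4.3.3; data table package 1.17.8), with a variance trend, 6 residual and 4.83 prior degrees of freedom, 2-sided tests and Benjamini-Hochberg adjustment over all genes at 0.05; it was tested on simulated data. Linear levels are 2 to the power of the value minus the floor's, per kb of the longest APPRIS principal transcript in GENCODE M21 of GRCm38. No coordinates of GRCm39 are used. Of 252 list entries, 228 matched by symbol, 9 by synonym and 15 not at all. Replicate numbers follow accession order. All fibrillar and basement membrane collagens are named, with the 8 other collagens of smallest unadjusted p, those that end a range, and list genes among the 3 of smallest p or that pass; 1 gene that meets this rule is not reported here. The members and lists were chosen with earlier results of these data known. Alternatives were no title-number term, median centring, quantile normalization, a filter at the 25th percentile, a pseudocount of 1, no trend, robust variances, sample weights, 1 set alone and leaving out each sample. Figures used Python 3.11.15, pandas 2.3.3, numpy 2.4.6 and matplotlib 3.10.9.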

Additional observations from a re-analysis of the deposited data

How the results depend on the processing

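No collagen passed in any of the 19 alternatives for either mutant. The median log2 change over the collagens was 0.20 to 0.52 in the null and 0.01 to 0.27 in the missense samples, and of 50 single-gene values 32 kept their sign throughout. Without the title-number term, 4 values changed sign: Col11a2 (0.21) and Col5a3 (0.20) in the null, and Col4a3 (0.57) and Col6a1 (0.24) in the missense samples. With sample weights, Col1a1 (-0.060), Col2a1 (-0.0234) and Col12a1 (-0.055) were below 0 in the missense samples. Leaving out 1 sample at a time, the null values that changed sign ran from -0.060 to 0.40 for Col4a5, from -1.62 to 0.42 for Col11a2, from -0.15 to 0.38 for Col2a1 and from -0.26 to 0.075 for Col5a3. The missense values ran from -0.11 to 0.33 for Col15a1, from -0.029 to 0.14 for Col4a1, from -0.58 to 0.28 for Col4a3, from -0.0805 to 0.20 for Col11a1, from -0.069 to 1.26 for Col11a2, from -0.15 to 0.22 for Col1a1, from -0.082 to 0.28 for Col1a2, from -0.14 to 0.24 for Col2a1, from -0.0005 to 0.26 for Col5a2, from -0.63 to 0.36 for Col5a3, from -0.21 to 0.13 for Col6a1, from -0.0385 to 0.27 for Col6a2, from -0.23 to 0.27 for Col12a1 and from -0.08 to 0.39 for Col27a1. The cause was not tested. A lone sample left in a group was assumed to vary like the other groups. Counts of collagens at an unadjusted p under 0.05 ran from 1 to 15 in the null. No paired analysis was possible because the titles give no replicate numbers shared by the groups. Depth is unknown, so what it limits cannot be stated; 11 of 42 collagens lie below the 25th percentile of level.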
